A study of Mus musculus with 12 samples.

Results

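The potassium channel gene family comprised 95 of the 23366 genes counted in each library, taken as every gene whose symbol begins with Kcn followed by a letter. Of these, 93 encode subunits of potassium channels. The other members are Kcnq1ot1, a long non-coding RNA transcribed antisense within the Kcnq1 locus, and Kcnrg, which encodes a regulator of channels. After a filter on low counts 61 members were tested, and 34 were too low to test. RNA-seq was done on epithelial cells of the mouse small intestine, with 12 libraries in 4 groups of 3, all from mice of mixed C57BL/6 and CD1 strain. E12.5 and E14.5 were embryonic cells, named by day of gestation and sorted as positive for EpCAM, an epithelial surface protein, and negative for the endothelial protein CD31 and the leukocyte protein CD45. ISC were intestinal stem cells of adult crypts, sorted for high Lgr5-EGFP fluorescence. AE were villus cells sorted by the same surface proteins as the embryonic cells, and the labels call them adult enterocytes. Both adult groups came from 2-month-old Lgr5EGFP-Cre-ERT males, which carry a reporter and an inducible recombinase at Lgr5, and the labels give no genotype for the embryos. Each E12.5 library pooled 20 embryos and each adult library came from 1 gut, while the pool size at E14.5 is not given in the sources used here. In all 6 embryonic libraries the age label names the other stage than the title does, and the titles were followed, so the sign of every change between E12.5 and E14.5 rests on them.

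Potassium channels let potassium leave the cell along its gradient and so set the voltage across the membrane. In intestinal epithelium the basolateral Na,K-ATPase loads the cell with potassium, and channels in the same membrane recycle it, which keeps the driving force for chloride secretion in crypts and for sodium-coupled nutrient uptake on villi. Voltage-gated, calcium-activated, inwardly rectifying and 2-pore-domain channels differ in what opens them, and silent and auxiliary subunits change the behaviour of pore subunits without conducting alone.

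Libraries held between 12587626 and 45190749 reads assigned to genes, and 1 read was worth 0.0195 to 0.114 counts per 1000000 (CPM) after normalisation. Levels below are normalised CPM. Summed crypt stem cell markers stood at 7610 to 8320 CPM in ISC and at 802 to 956 CPM in AE, and summed enterocyte markers at 30700 to 66600 CPM in AE and 802 to 1750 CPM in ISC. Goblet markers reached 19400 to 32700 CPM and enteroendocrine markers 1720 to 2480 CPM in AE, so AE held transcripts of secretory cells too. Paneth cell markers summed to 2310 to 4010 CPM in ISC and 2900 to 6890 CPM in AE. With goblet markers at 1120 to 1560 CPM, ISC also held transcripts of other cell types. Between 3.06% and 5.96% of the reads of each E12.5 or ISC library are listed as aligned in several places, and no such read is listed for any E14.5 or AE library. This split lies across 4 of the 6 comparisons, where it cannot be told apart from the groups. The comparisons of AE with E14.5 and of ISC with E12.5 each stay on 1 side of it. In sorted bulk samples, fewer cells of a type and less RNA per cell cannot be told apart.

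The summed level of the 93 channel genes was 400 ± 12 CPM (SD, n = 3) at E12.5 and 258 ± 1.43 CPM at E14.5. It was 997 ± 35.3 CPM in ISC and 485 ± 62.5 CPM in AE. The libraries of no group overlapped those of E14.5, which were the lowest, or those of ISC, which were the highest. Set per kilobase of exon, so that genes could be compared with each other, the leading gene of the summed level changed between groups. Kcnk1, a 2-pore-domain leak channel, made up 21.1% of the summed CPM per kilobase in E12.5, followed by the auxiliary subunit gene Kcne3 at 15.1% and the stretch-sensitive leak channel gene Kcnk2 at 14.3%. In E14.5 Kcne3 and Kcnk1 came first with 35.1% and 31.7%, and the next gene, Kcne1l, held 4.03%. In ISC Kcne3 held 47.6% and its pore partner Kcnq1 22.8%, ahead of Kcnk1 at 16.8% and the calcium-activated channel gene Kcnn4 at 4.69%. In AE Kcne3 at 24%, Kcnk5 at 23.2% and Kcnk1 at 18.7% stood close together, followed by Kcnq1 at 8.33%. While the summed level was highest in ISC, the number of channel genes was lowest there. At least 1 CPM was reached by 36 of the 93 genes at E12.5, 32 at E14.5, 22 among ISC and 29 among AE. In those groups 6, 7, 27 and 26 genes had no read at all. Depth differed, with 3 counts over a group worth 0.0371, 0.0263, 0.0525 and 0.0606 CPM in the same order. Such counts were not taken over all genes, so they describe the 93 genes only.

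**Figure D1:**
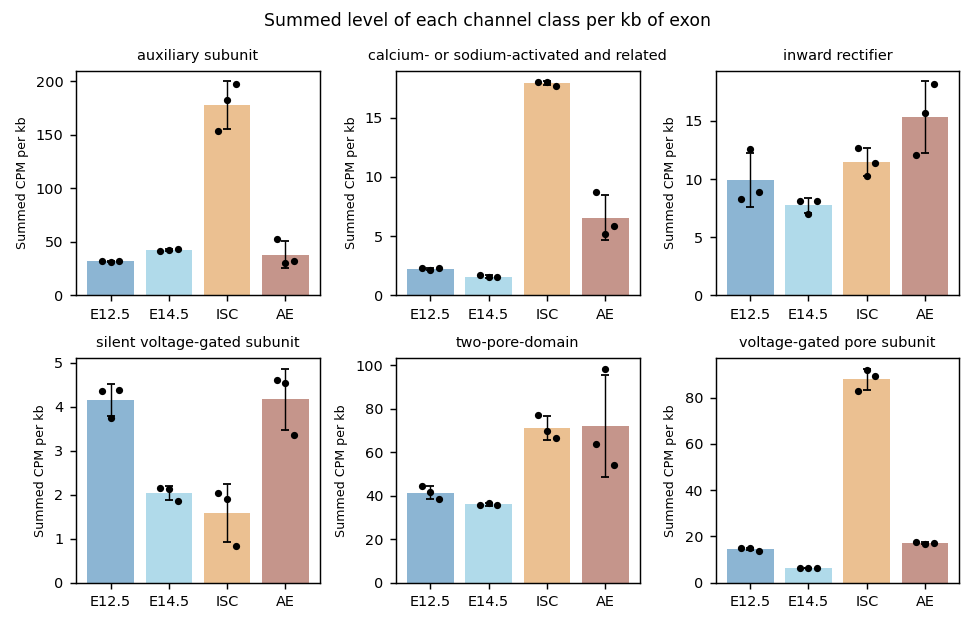
Summed CPM per kilobase of exon for the 6 classes of channel subunit in E12.5, E14.5, ISC and AE, with a bar for the mean of 3 libraries, a point for each library and an error bar of 1 SD. Voltage-gated pore subunits averaged 88 in ISC against 14.6 at E12.5, 6.38 at E14.5 and 17.3 in AE, and auxiliary subunits 177 in ISC against 31.9, 42.3 and 38.2.

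Members fell into 2 main patterns. Embryo-high members were called higher in at least 1 embryonic group than in both adult groups, and adult-high members the reverse. Of the 61 members tested, 31 were embryo-high, or 50.8%, against 32% of all 15342 genes tested, and 17 were adult-high, or 27.9%, against 39.5% of all genes. None met both rules, and 13 met neither. A low member passes the filter only through a group where it is high, so these shares describe the 61 and are not a result about all 95. Among the 31 embryo-high members, 18 had their highest mean in E12.5 and 13 in E14.5. Both adult groups stood under 1 CPM for 28 of them, and 8 had no read in any adult library, namely Kcna5, Kcna6, Kcne1l, Kcng1, Kcnip1, Kcnmb4, Kcnq5 and Kcnv1. Among the 17 adult-high members, 6 had their highest mean in ISC and 11 in AE. Only 5 embryo-high members reached 10 CPM in their highest group, namely Kcnq3, Kcnk2, Kcnv2, Kcne1l and Kcnh1. The same level was reached by 8 adult-high members, namely Kcnq1, Kcne3, Kcnk1, Kcnk5, Kcnn4, Kcnj2, Kcnk10 and Kcnk6. By class, auxiliary subunits were embryo-high in 10 of 12 tested members and voltage-gated pore subunits in 9 of 17. Of 7 tested 2-pore-domain members 4 were adult-high, as were 4 of 10 inward rectifiers, the latter near the 39.5% of all genes.

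**Figure D2:**
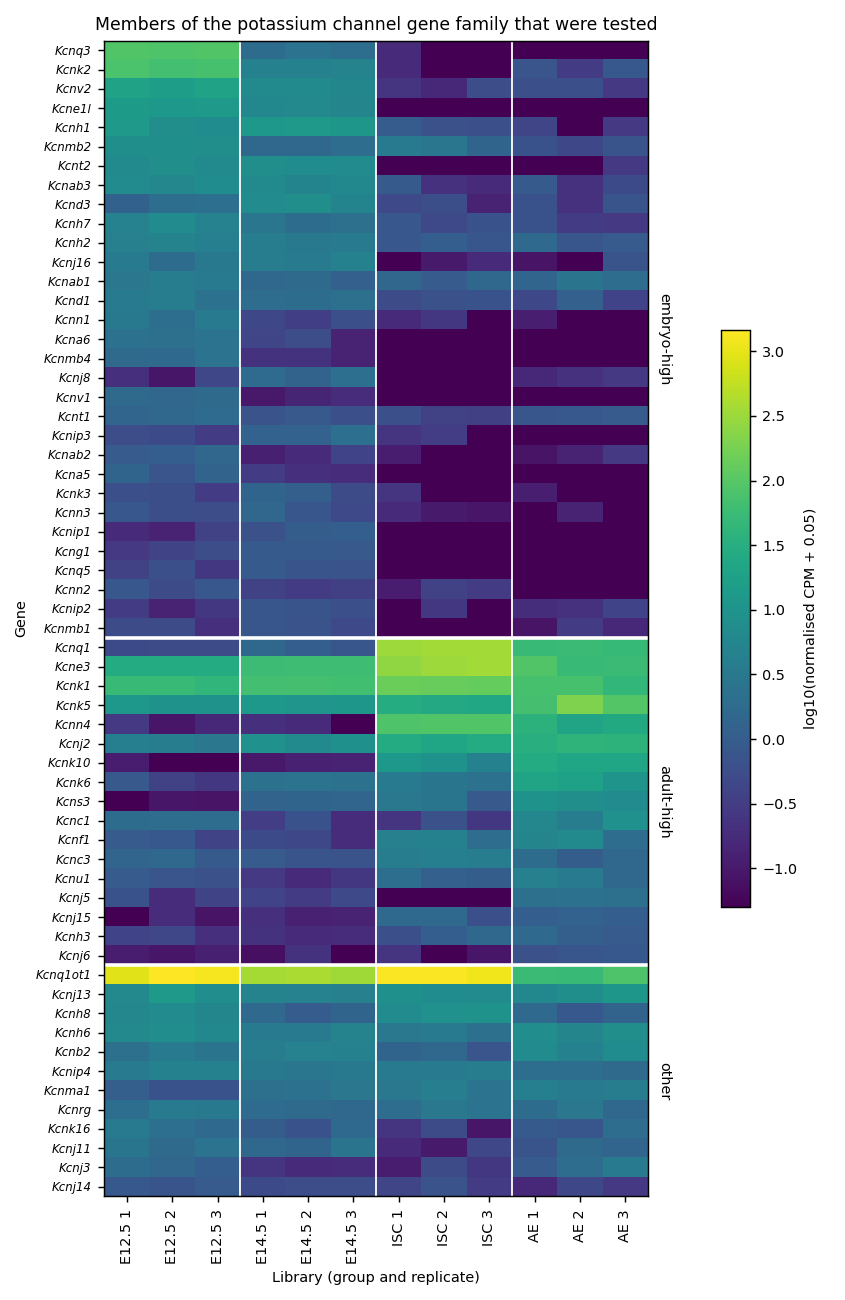
Level of 60 of the 61 tested members in each of the 12 libraries, as log10 of normalised CPM plus 0.05, with rows grouped as embryo-high, adult-high and other and ordered by level in the highest group. The upper block is darkest in the ISC and AE columns, where 8 of its 31 genes have no read, and Kcnq1, Kcne3 and Kcnk1 head the middle block in ISC.

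Between E12.5 and E14.5 Kcnq3 and Kcnk2 fell to a few CPM, and Kcne3, Kcnj2 and Kcnk6 rose. In this comparison 39 of the 61 members were called at an adjusted p under 0.05, 14 higher at E14.5 and 25 lower. Of all genes tested 49.1% were called, 23.5% higher and 25.6% lower. The members' median log2 change was -0.393, and that of all genes -0.0151. Kcnq3, Kcnk2, Kcnv1 and Kcnmb4 fell 41.5-fold, 16-fold, 17.4-fold and 12.2-fold. Kcns3 rose most, from a mean of 0.027 CPM in E12.5, where its counts were too few for a fitted fold. The members with the largest fitted rises were Kcnj8, Kcnk6, Kcnip1 and Kcnd3.

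From E14.5 to ISC, 47 members were called, 15 higher and 32 lower, against 60.8% of all genes tested, 30.2% higher and 30.6% lower. Their median log2 change was -1.88, and that of all genes -0.00482. Kcnn4 and Kcnq1 rose 807-fold and 301-fold and Kcnk10 117-fold, while Kcne1l and Kcnt2 fell to 0 counts. From ISC to AE 31 members were called, 19 higher and 12 lower, against 67.8% of all genes, 32.6% higher and 35.1% lower. The median log2 change was 0.236 for members and -0.0534 for all genes. Kcnk5, Kcnk6, Kcnk10, Kcns3 and Kcnc1 rose on the villus, and the crypt channel genes Kcnq1, Kcne3, Kcnn4 and Kcnk1 fell. The count of 19 was 12 when the 6 libraries compared were fitted alone, where 31 members passed the filter.

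The remaining comparisons span more than 1 step and share libraries with those above. ISC against E12.5 gave 51 called members, 14 higher and 37 lower, where 68.5% of all genes were called, 33.8% higher and 34.7% lower, with medians of -2.22 for members and -0.00527 for all genes. For AE against E14.5 the counts were 48 called, 18 higher and 30 lower, against 78.1%, 36.7% and 41.4% of all genes, and the medians -0.865 and -0.121. In AE against E12.5 50 members were called, 18 higher and 32 lower, against 82%, 38.4% and 43.7% of all genes, with medians of -1.11 and -0.154. The first of these 3 comparisons lies within 1 side of the split in multiply aligned reads, and its changes for members with over 3 counts in both groups ranged from a log2 change of -5.90 for Kcnv2 to 9.49 for Kcnq1.

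**Figure D3:**
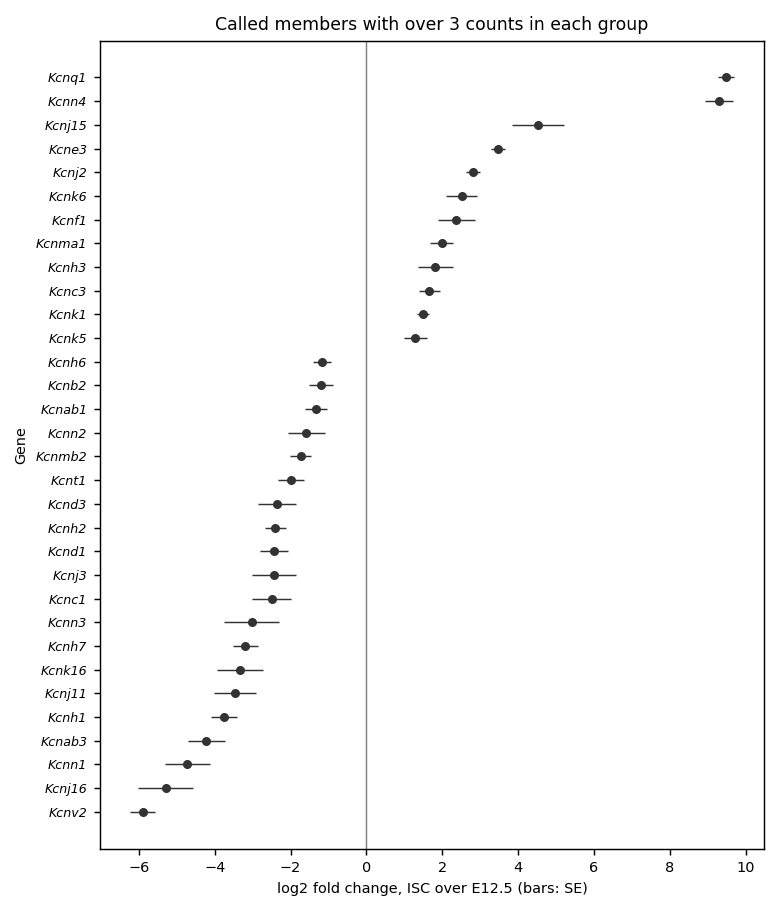
Log2 fold change of ISC over E12.5 with its standard error for 32 called members that had over 3 counts in each group. The 12 members to the right are led by Kcnq1 at 9.49 and Kcnn4 at 9.30, and the 20 to the left end with Kcnv2 at -5.90.

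Among the voltage-gated pore subunits, Kcnq3 was high in E12.5 and nearly without reads in the adult groups. The gene encodes a subunit of the slowly activating M-current of neurons. It stood at 88.8, 85.9 and 89.6 CPM in E12.5 and at 1.87, 2.42 and 2.02 CPM in E14.5. Over the 3 libraries of each adult group it had 2 counts in ISC and 0 in AE. Every E12.5 library lay far above every other library. The fall to E14.5 was 41.5-fold, a log2 change of -5.38 with a standard error of 0.20 and an adjusted p of 2.76e-09. Against ISC the E12.5 level was 2520-fold higher with a counting interval of 698 to 20800, and against AE at least 1450-fold higher, taking 3 counts in the whole group as the floor.

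Kcnq1 ran the opposite course. It encodes the pore subunit that assembles with the Kcne3 product in intestinal crypts into a basolateral channel that is open at rest. Its level was 0.449, 0.489 and 0.477 CPM in E12.5 and 1.52, 1.03 and 0.747 CPM in E14.5. In ISC it reached 324, 357 and 347 CPM, and in AE 52.5, 55.4 and 49.2 CPM. The 4 groups did not overlap, with ISC highest and E12.5 lowest. The rise from E14.5 to ISC was 301-fold (log2 change 8.23, SE 0.19, adjusted p = 5.17e-13), and the fall from ISC to AE 6.54-fold (log2 change -2.71, SE 0.14, adjusted p = 1.18e-09). On each side of the split in multiply aligned reads it also differed, by 722-fold for ISC over E12.5 and 46-fold for AE over E14.5.

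**Figure D4:**
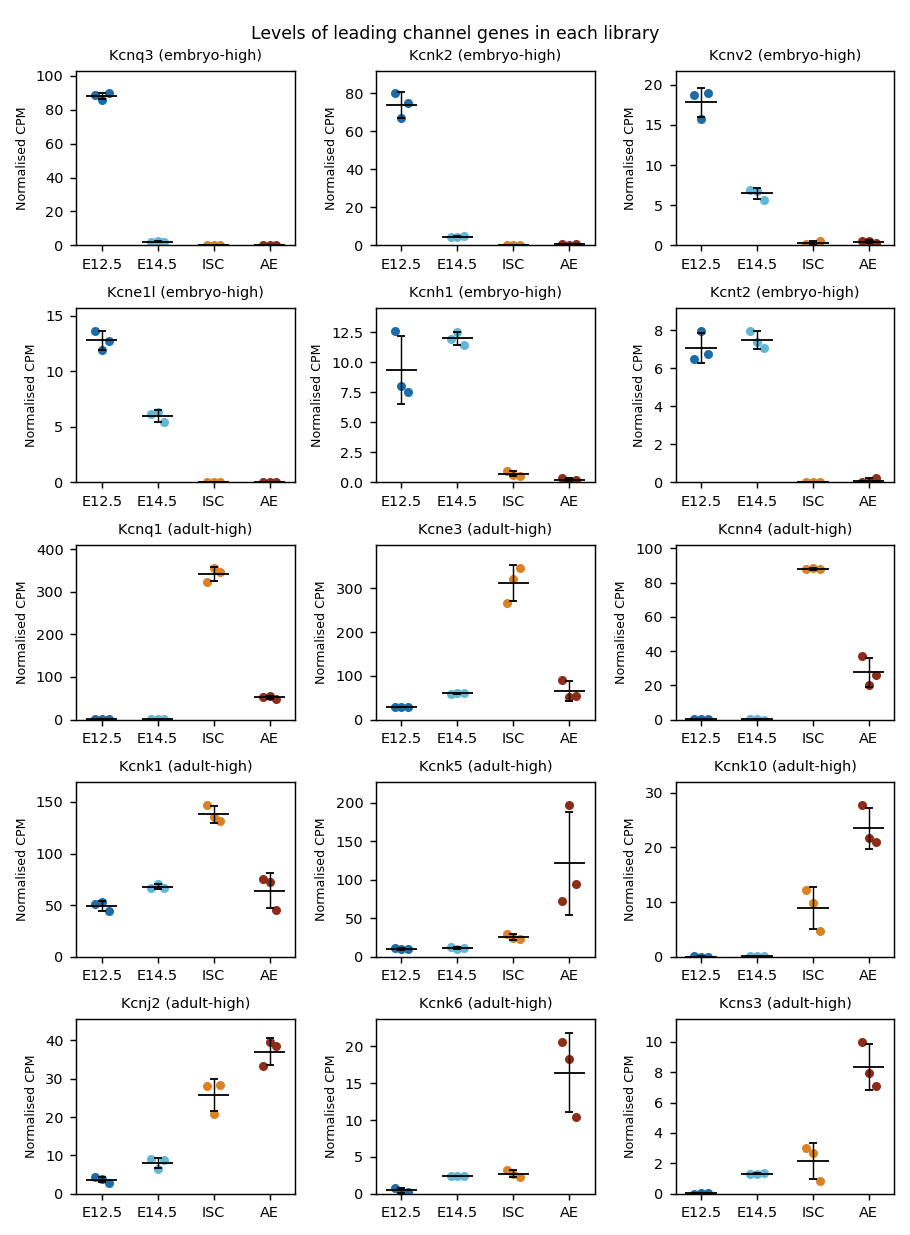
Normalised CPM of 15 members in each library of E12.5, E14.5, ISC and AE, with a line for the mean and an error bar of 1 SD over 3 libraries. The upper 6 panels hold embryo-high genes such as Kcnq3, which drops from 88.1 CPM to 2.1 CPM between the embryonic stages, and the lower 9 hold adult-high genes, of which Kcnq1 peaks in ISC at 343 CPM and Kcnk5 in AE at 121 CPM.

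Kcnh1, which encodes an ether-a-go-go channel linked to cell proliferation, was shared by both embryonic stages. It stood at 12.6, 7.99 and 7.52 CPM in E12.5, 12 ± 0.53 CPM with a lowest library of 11.5 CPM in E14.5, 0.951, 0.599 and 0.565 CPM in ISC, and 0.385, 0 and 0.228 CPM in AE. The embryonic groups overlapped each other and lay above all adult libraries. From E14.5 to ISC it fell 17.3-fold (log2 change -4.11, SE 0.34, adjusted p = 9.41e-08). The further fall to AE, of 2.68-fold with an adjusted p of 0.0346, was lost without ISC replicate 1 or AE replicate 2 or 3, at adjusted p-values of 0.108, 0.103 and 0.0733, and was 6.87-fold without AE replicate 1. Related ether-a-go-go genes Kcnh2 and Kcnh7 were embryo-high too, with means of 4.48 ± 0.389 and 5.51 ± 1.27 CPM in E12.5 and at most 1.09 CPM in either adult group.

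Kcna6, a member of the Shaker-type family of delayed rectifiers, had 2.41, 2.18 and 2.46 CPM in E12.5, 0.374, 0.527 and 0.0879 CPM in E14.5, and no read in ISC or AE. The groups did not overlap, and the fall to E14.5 was 6.44-fold (adjusted p = 0.000644). Reads of this gene are uncertain, because 39.6% of its exon bases lie opposite exons of Gm26673 and the strand setting of the counting is not given. Kcna5 followed the same order at 1.1 ± 0.343, 0.179 ± 0.0619, 0 and 0 CPM.

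Kcnd3, which encodes a rapidly inactivating channel, was instead highest at E14.5. Its level was 1.16, 2.04 and 2.09 CPM in E12.5, 7, 7.96 and 5.1 CPM in E14.5, 0.444, 0.545 and 0.087 CPM in ISC, and 0.631, 0.163 and 0.685 CPM in AE. All E14.5 libraries were above all others. It rose 3.84-fold between the embryonic stages (log2 change 1.94, SE 0.36, adjusted p = 0.00044) and was 19.6-fold lower in ISC than in E14.5 (adjusted p = 1.56e-06). As a sum, markers of mesenchyme and smooth muscle had the same order. Their summed level was 26.8 to 36.7 CPM in E12.5, 268 to 345 CPM in E14.5, 9.21 to 9.95 CPM in ISC and 13.4 to 14.2 CPM in AE, all 14 of them rose at E14.5, and Des, Col6a1 and Lum were at 0 in ISC. Of single markers, Tagln was highest in AE, at 10.2 ± 1.95 CPM against 5.8 ± 0.475 CPM in E14.5. Pdgfrb was called higher in both adult groups than in E12.5. The part of these markers in the level of Kcnd3 was not tested. Kcnip1, whose product binds channels of this kind, rose with it, from 0.182 ± 0.129 to 0.868 ± 0.234 CPM.

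Kcnc1 was higher on the villus than in stem cells. It encodes a fast channel known from rapidly firing neurons, and had 1.83, 1.95 and 1.94 CPM in E12.5, 0.274, 0.605 and 0.132 CPM in E14.5, 0.19, 0.599 and 0.217 CPM in ISC, and 5.71, 3.92 and 9.02 CPM in AE. AE was the highest group without overlap, and E14.5 and ISC overlapped. It fell 5.09-fold to E14.5 (adjusted p = 0.000656) and rose 18.1-fold from ISC to AE (adjusted p = 3.75e-06). Without E14.5 replicate 2 the fall was 8.57-fold, and without ISC replicate 2 the rise was 29-fold.

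Kcnb2, which encodes a delayed rectifier, rose in the same step, from 1.2 ± 0.456 CPM in ISC to 6.39 ± 1.66 CPM in AE. Enteroendocrine markers stood at 133 to 200 CPM in ISC and 1720 to 2480 CPM in AE, with 12 of 13 called higher in AE and none at 0 in any group. Their part in the levels of Kcnb2 and Kcnc1 was not tested.

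Kcnh8, from the same class, followed a zigzag. It had 5.81, 7.15 and 5.5 CPM in E12.5, 1.62, 0.937 and 1.32 CPM in E14.5, 7.1, 8.93 and 9.87 CPM in ISC, and 1.65, 0.817 and 1.26 CPM in AE. E12.5 and ISC overlapped, E14.5 and AE overlapped, and each pair stood apart from the other, which is also how the libraries divide by their multiply aligned reads. On each side of that division no change was called, with adjusted p-values of 0.0721 for ISC against E12.5 and 0.93 for AE against E14.5. The part of the division in this result was not tested.

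Of the silent voltage-gated subunits, which modify other pore subunits, 3 were embryo-high, namely Kcnv2, Kcnv1 and Kcng1. Kcnv2 had 18.8, 15.7 and 18.9 CPM in E12.5, 6.95, 6.81 and 5.67 CPM in E14.5, 0.19, 0.109 and 0.522 CPM in ISC, and 0.561, 0.572 and 0.228 CPM in AE. The embryonic groups stood apart from each other and above the adult groups, which overlapped. The level dropped 2.74-fold to E14.5 (log2 change -1.45, SE 0.22, adjusted p = 8.32e-05) and then 21.8-fold to ISC (log2 change -4.45, SE 0.33, adjusted p = 3.29e-08). The latter was 44-fold without ISC replicate 3. Kcnv1 fell with it, from 1.62 ± 0.136 CPM to 0.0931 ± 0.0412 CPM, and had no read in the adult.

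Kcns3 and Kcnf1 were the adult ones. Kcns3 had 0, 0.0444 and 0.0367 CPM in E12.5, a total of 2 counts, then 1.27, 1.31 and 1.36 CPM in E14.5, 2.98, 2.67 and 0.826 CPM in ISC, and 9.99, 7.92 and 7.08 CPM in AE. Only E14.5 and ISC overlapped. The rise between embryonic stages was 52.8-fold with a counting interval of 14.4 to 440, and AE was 3.99-fold above ISC (log2 change 2.00, SE 0.36, adjusted p = 0.000168).

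Kcnf1 had 0.898, 0.799 and 0.367 CPM in E12.5, 0.449, 0.41 and 0.132 CPM in E14.5, 4.37, 4.52 and 1.96 CPM in ISC, and 5.26, 6.54 and 1.94 CPM in AE. The adult groups overlapped each other and lay above both embryonic groups. It rose 9.96-fold from E14.5 to ISC (log2 change 3.32, SE 0.51, adjusted p = 5.8e-05), and no change was called between ISC and AE.

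Of the auxiliary subunits, Kcne3 led per kilobase in all 4 groups and rose at both steps toward the adult stem cell. It had 28.3, 28 and 28 CPM in E12.5, 58.4, 60.3 and 61.3 CPM in E14.5, 267, 320 and 347 CPM in ISC, and 90.9, 50.8 and 54.7 CPM in AE. ISC was highest without overlap, and AE overlapped E14.5. Kcne3 rose 2.13-fold to E14.5 (log2 change 1.09, SE 0.18, adjusted p = 0.00016) and 5.2-fold from there to ISC (log2 change 2.38, SE 0.18, adjusted p = 3.98e-08), and fell 4.73-fold to AE (log2 change -2.24, SE 0.18, adjusted p = 7.64e-08). AE replicate 1 was the highest of its group. In E12.5 and E14.5 Kcne3 thus stood well above Kcnq1, with 15.8 against 0.115 and 33.7 against 0.269 CPM per kilobase. In ISC the levels of the partners were 175 and 83.7 CPM per kilobase, and in AE 36.8 and 12.8.

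Kcne1l, a relative of Kcne3 that is also called Kcne5, was embryonic. It had 13.7, 11.9 and 12.8 CPM in E12.5, 6.13, 6.38 and 5.41 CPM in E14.5, and not a single read in the 6 adult libraries. The embryonic groups did not overlap, and the fall between them was 2.14-fold (log2 change -1.09, SE 0.18, adjusted p = 0.000474). E14.5 was at least 114-fold above ISC and at least 98.6-fold above AE. Kcne1, Kcne2 and Kcne4 were too low to test, with 25, 8 and 19 counts over all libraries.

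The beta subunits of the large-conductance calcium-activated channel were mostly embryonic. Kcnmb2 had 8.28 ± 0.34 CPM at E12.5, 1.69 ± 0.213 CPM at E14.5, 2.54 ± 1.12 CPM in ISC and 0.575 ± 0.147 CPM in AE, and fell both to E14.5 and from ISC to AE. Kcnmb4 fell from 1.94 ± 0.447 to 0.146 ± 0.0503 CPM between the embryonic stages and had no read in the adult, and 31.5% of its exon bases overlap those of other genes. Kcnab3, a cytoplasmic beta subunit of voltage-gated channels, stood at 6.76 ± 0.829 and 5.86 ± 0.722 CPM in the embryo, with no change called between the stages, and at 0.394 ± 0.428 CPM in ISC and 0.499 ± 0.358 CPM in AE.

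Among the 2-pore-domain channels, which carry the leak current, Kcnk2 and Kcnk3 were embryo-high and Kcnk1, Kcnk5, Kcnk6 and Kcnk10 adult-high. Kcnk2 encodes a channel opened by stretch and lipids, and Kcnk10 its closest relative. Kcnk2 had 80, 66.8 and 74.8 CPM in E12.5, 4.49, 4.51 and 4.88 CPM in E14.5, 0.127, 0 and 0 CPM in ISC, a total of 2 counts, and 0.701, 0.245 and 0.799 CPM in AE. The 4 groups did not overlap. The drop to E14.5 was 16-fold (log2 change -4.00, SE 0.21, adjusted p = 5.18e-09), the E14.5 level was 131-fold above ISC with a counting interval of 36 to 1080, and AE stood 7.66-fold below E14.5 (adjusted p = 3.42e-07). Of its exon bases 12.2% lie opposite exons of A430027H14Rik.

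Kcnk10 ran the other way. It had 2 counts in all of E12.5 and 0.0498, 0.0781 and 0.0879 CPM in E14.5, then 12.2, 9.86 and 4.61 CPM in ISC and 27.8, 21.6 and 21 CPM in AE. The adult groups overlapped neither each other nor the embryonic groups. It rose 117-fold from E14.5 to ISC (log2 change 6.88, SE 0.48, adjusted p = 1.56e-08) and 2.68-fold to AE (log2 change 1.42, SE 0.29, adjusted p = 0.000484). Per kilobase of exon, Kcnk2 in E12.5 stood at 14.9 CPM and Kcnk10 in AE at 2.68 CPM.

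Promoter sequences are shown for the relatives Kcnk2 and Kcnk10 and for Kcnk5 and Kcnn4, because they belong to genes of both patterns, embryo-high for Kcnk2 and adult-high for the others. Each is the 250 bases before the first start site listed by RefSeq on build GRCm38.p6, written 5′ to 3′ on the gene's strand, with CG dinucleotides in capitals. The windows are chr1:189402274-189402523 (minus strand) for Kcnk2, chr12:98578214-98578463 (minus) for Kcnk10, chr14:20181783-20182032 (minus) for Kcnk5 and chr7:24370013-24370262 (plus) for Kcnn4. RefSeq lists 4 such windows for Kcnk2, 2 for Kcnk10 and 1 each for Kcnk5 and Kcnn4.
Kcnk2: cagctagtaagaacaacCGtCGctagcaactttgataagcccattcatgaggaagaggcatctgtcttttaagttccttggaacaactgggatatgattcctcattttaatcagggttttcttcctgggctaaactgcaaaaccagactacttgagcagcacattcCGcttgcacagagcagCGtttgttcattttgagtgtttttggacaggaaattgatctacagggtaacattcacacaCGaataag
Kcnk10: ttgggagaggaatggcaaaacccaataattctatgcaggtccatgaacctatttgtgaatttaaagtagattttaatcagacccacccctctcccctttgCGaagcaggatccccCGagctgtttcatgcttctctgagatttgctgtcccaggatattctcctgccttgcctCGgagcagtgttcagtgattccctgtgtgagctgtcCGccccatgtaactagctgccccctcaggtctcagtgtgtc
Kcnk5: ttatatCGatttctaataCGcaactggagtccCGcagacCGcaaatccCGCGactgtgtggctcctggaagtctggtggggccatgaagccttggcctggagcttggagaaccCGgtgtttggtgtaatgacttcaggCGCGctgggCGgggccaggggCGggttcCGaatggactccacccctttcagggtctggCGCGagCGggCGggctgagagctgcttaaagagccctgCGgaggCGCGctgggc
Kcnn4: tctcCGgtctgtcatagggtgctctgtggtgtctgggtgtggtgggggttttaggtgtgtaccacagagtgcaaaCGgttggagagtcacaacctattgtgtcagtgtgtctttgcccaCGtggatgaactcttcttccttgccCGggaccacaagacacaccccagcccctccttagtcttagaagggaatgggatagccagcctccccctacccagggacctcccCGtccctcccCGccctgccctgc
The stretch before Kcnk2 holds 5 CG dinucleotides and 42.4% G and C, and that before Kcnk10 holds 4 and 50%. The stretch before Kcnk5 holds 19 and 62.8%, and that before Kcnn4 holds 6 and 58.8%. In the full RefSeq windows of 300 bases, Kcnk2 and Kcnk10 held 6 and 7 CG dinucleotides, Kcnk5 held 26 and Kcnn4 held 6. The median over all such windows was 7. A link between these counts and the pattern of a gene was not tested.

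Of the 95 members 70 matched a promoter window of 300 bases in the RefSeq table. The first window had a median of 59.3% G and C and 10 CG dinucleotides over 22 embryo-high members and of 55.7% and 9.5 over 12 adult-high members, beside 52.7% and 7 over all 32851 windows. Few of the first windows of embryo-high and adult-high members held the 4 short motifs looked for, searched on both strands. The letters were CAAAGTCCA for HNF4, ATCAAAG for TCF/LEF factors, TTTATGG for CDX and TATAAA for the TATA box, and all windows held them in 0.475%, 3.73%, 2.75% and 13.6% of cases. The TCF/LEF letters were found in 1 of the 22 embryo-high windows, that of Kcnk2, and the TATA letters in 1 of the 12 adult-high windows, that of Kcnj15. The HNF4 and CDX letters were in none of the windows of either pattern, and were rare in all windows too. A match or its absence is a description of these letters only.

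Kcnk1, a leak channel found on inner membranes as well as at the surface, was abundant throughout. It had 50.7, 53.4 and 43.8 CPM in E12.5, 66.8, 70.8 and 66.3 CPM in E14.5, 147, 135 and 131 CPM in ISC, and 74.9, 72.8 and 44.8 CPM in AE. ISC was above every other library, and AE overlapped both embryonic groups. The gene rose 2.03-fold from E14.5 to ISC (log2 change 1.02, SE 0.16, adjusted p = 5.34e-05) and fell 2.14-fold to AE (log2 change -1.10, SE 0.16, adjusted p = 2.22e-05). Its rise of 1.38-fold between the embryonic stages, with an adjusted p of 0.0236, was lost without E12.5 replicate 3 or E14.5 replicate 1 or 2, at adjusted p-values of 0.0978, 0.0505 and 0.0716. A difference of 1.31-fold between AE and E12.5, with an adjusted p of 0.0338, was lost without E12.5 replicate 1 or 3 or AE replicate 1 or 2, at 0.0585, 0.131, 0.129 and 0.108. It was also lost under upper-quartile scaling, at 0.476, and when those 6 libraries were fitted alone, at 0.0633.

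Kcnk5, which encodes a leak channel opened by alkaline conditions outside the cell, rose into the villus, where it stood at 35.6 ± 19.7 CPM per kilobase beside 28.7 ± 7.52 for Kcnk1, a difference within their spread. It had 11.8, 9.9 and 9.36 CPM in E12.5, 11.9, 10.5 and 11.3 CPM in E14.5, 29.2, 24.6 and 22.6 CPM in ISC, and 71.9, 197 and 94.6 CPM in AE. AE replicate 2 was more than double the other AE libraries, and all 3 lay above every ISC library. The rise from ISC was 4.76-fold (log2 change 2.25, SE 0.29, adjusted p = 1.7e-05), and leaving out any 1 library gave log2 changes between 1.74 and 2.53. From E14.5 to ISC it rose 2.26-fold (log2 change 1.18, SE 0.29, adjusted p = 0.0036).

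Kcnk6, a relative of Kcnk1, had 0.834, 0.311 and 0.22 CPM in E12.5, 2.37, 2.48 and 2.37 CPM in E14.5, 3.23, 2.67 and 2.3 CPM in ISC, and 20.6, 18.3 and 10.4 CPM in AE. E14.5 and ISC overlapped, and the other groups stood apart. It rose 5.05-fold at E14.5 (log2 change 2.34, SE 0.38, adjusted p = 0.000183), which became 9.06-fold without E12.5 replicate 1, and 6.12-fold from ISC to AE (log2 change 2.61, SE 0.31, adjusted p = 4e-06). Among the other members of the class, Kcnk3 was embryo-high at 0.456 ± 0.174 and 0.966 ± 0.433 CPM in E12.5 and E14.5, with 3 counts in ISC and 2 in AE.

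Of the inward rectifiers, Kcnj2 rose at every step. It encodes a strong rectifier that holds the resting potential of many cells. It had 4.27, 3.86 and 2.86 CPM in E12.5, 8.95, 6.56 and 8.7 CPM in E14.5, 28.1, 20.8 and 28.3 CPM in ISC, and 33.2, 39.6 and 38.5 CPM in AE. The 4 groups followed that order without overlap. The rises were 2.19-fold to E14.5 (log2 change 1.13, SE 0.19, adjusted p = 0.000213), 3.2-fold to ISC (log2 change 1.68, SE 0.18, adjusted p = 1.5e-06) and 1.44-fold to AE (log2 change 0.53, SE 0.17, adjusted p = 0.0146). The last was lost without ISC replicate 2, at an adjusted p of 0.0811, and under upper-quartile scaling, at 0.108.

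Kcnj3 and Kcnj5 encode channels gated by G proteins and were low in stem cells. Kcnj3 had 1.86, 1.42 and 1.03 CPM in E12.5, 0.199, 0.117 and 0.132 CPM in E14.5, 0.0634, 0.49 and 0.217 CPM in ISC, and 0.911, 1.96 and 3.43 CPM in AE. E12.5 and AE overlapped, as did E14.5 and ISC. The rise from ISC to AE was 7.32-fold (log2 change 2.87, SE 0.61, adjusted p = 0.000689) and 12.4-fold without ISC replicate 2. Of its exon bases 31.1% lie opposite exons of Gm26794.

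Kcnj5 had 0.61, 0.133 and 0.367 CPM in E12.5, 0.349, 0.254 and 0.439 CPM in E14.5, no read in ISC, and 2.14, 2.29 and 2.17 CPM in AE. The embryonic groups overlapped and AE stood above them. AE was at least 41.9-fold above ISC and 6.48-fold above E14.5 (adjusted p = 9.46e-05). Kcnj6, another G protein-gated member, was at 0.71 ± 0.104 CPM in AE and under 0.08 CPM in each other group. Kcnj11, whose product forms the ATP-sensitive channel of endocrine cells with the Abcc8 product, was 2.31 ± 0.508 CPM at E12.5, 1.81 ± 0.689 CPM at E14.5, 0.191 ± 0.177 CPM in ISC and 1.25 ± 0.535 CPM in AE, and rose from ISC to AE. Abcc8 rose in the same step, from 1.49 ± 0.407 to 9.48 ± 2.17 CPM. Its level was 10.1 ± 2 CPM in E12.5 and 8.95 ± 3.72 CPM in E14.5, and no change was called between AE and either of these. The enteroendocrine markers given above also rose from ISC to AE, and their part in these levels was not tested. Those markers summed to 46.1 to 92.1 CPM in E12.5 and 113 to 201 CPM in E14.5, where the means of Kcnj11 were above that in AE.

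Kcnj8 and Abcc9 encode the channel and receptor subunits of the ATP-sensitive channel of blood vessel walls. Kcnj8 rose from 0.203 ± 0.183 CPM in E12.5 to 1.7 ± 0.416 CPM in E14.5, had no read in ISC and stood at 0.166 ± 0.0617 CPM in AE. Abcc9 rose from 0.339 ± 0.183 to 5.19 ± 1.1 CPM and stood at 0.0472 ± 0.0439 CPM in ISC with no read in AE. Both moved with the sum of the mesenchyme and smooth muscle markers, whose part was not tested. Summed endothelial markers were at 1.09 to 4.4 CPM in E12.5 and 1.71 to 6.33 CPM in E14.5. Kcnj16, a rectifier sensitive to internal pH, was embryo-high at 2.88 ± 0.942 and 3.93 ± 0.492 CPM against 0.0616 ± 0.0655 CPM in ISC and 0.24 ± 0.386 CPM in AE.

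Kcnj13, a weakly rectifying channel of transporting epithelia, was present in every group, at 8.93 ± 3.53 CPM at E12.5, 4.69 ± 0.275 CPM at E14.5, 7.76 ± 0.909 CPM in ISC and 8.62 ± 2.67 CPM in AE. Its reads are uncertain, because 49.1% of its exon bases lie opposite exons of Gigyf2.

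Of the calcium- and sodium-activated channels, Kcnn4 appeared in the adult crypt. It encodes the intermediate-conductance calcium-activated channel that supports secretion evoked by calcium. It had 0.225, 0.0444 and 0.11 CPM in E12.5, 0.15, 0.117 and 0 CPM in E14.5, 87.7, 88.7 and 88.1 CPM in ISC, and 36.9, 20.2 and 26.2 CPM in AE. The embryonic groups overlapped, ISC was highest, and AE lay between. The rise from E14.5 to ISC was 807-fold (log2 change 9.66, SE 0.37, adjusted p = 2.65e-11), and the fall to AE 3.15-fold (log2 change -1.65, SE 0.22, adjusted p = 1.01e-05). ISC over E12.5, within 1 side of the read split, gave 629-fold, or 1030-fold without E12.5 replicate 1. The small-conductance relatives Kcnn1, Kcnn2 and Kcnn3 were embryo-high and never exceeded a mean of 3 CPM.

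Kcnn1 had 3.18, 2.04 and 3.56 CPM in E12.5, 0.424, 0.293 and 0.571 CPM in E14.5, 0.127, 0.218 and 0 CPM in ISC, and 2 counts in all of AE. It fell 7.08-fold at E14.5 (log2 change -2.82, SE 0.44, adjusted p = 0.000114), where the groups did not overlap. A fall of 3.73-fold from E14.5 to ISC, with an adjusted p of 0.0294, was lost when any of 4 libraries was left out, at adjusted p-values from 0.0541 to 0.112, and was 7.26-fold without ISC replicate 2. The 4 libraries were E14.5 replicates 1 and 3 and ISC replicates 1 and 3.

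Kcnt2, which encodes a sodium-activated channel, was embryonic at both stages. It had 6.48, 7.95 and 6.75 CPM in E12.5, 7.97, 7.38 and 7.03 CPM in E14.5, no read in ISC, and 0, 0 and 0.228 CPM in AE, a total of 2 counts. The embryonic groups overlapped and stood above all adult libraries. E14.5 was at least 142-fold above ISC, and 186-fold above AE with a counting interval of 51.4 to 1540.

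Kcnma1, which encodes the large-conductance calcium-activated channel, had 1.09, 0.622 and 0.624 CPM in E12.5, 2.17, 2.38 and 2.9 CPM in E14.5, 2.98, 4.09 and 2.44 CPM in ISC, and 4.17, 3.27 and 3.65 CPM in AE. E12.5 was lowest without overlap, and ISC overlapped both E14.5 and AE. It rose 3.1-fold between the embryonic stages (log2 change 1.63, SE 0.29, adjusted p = 0.000351), and no later step was called. Its partner Lrrc26, a gamma subunit that lets the channel open at rest in secretory cells, rose from 0.0932 ± 0.0217 CPM in E14.5 to 4.13 ± 0.805 CPM in ISC and 24 ± 7.81 CPM in AE. Goblet markers rose beside Lrrc26, with summed levels of 174 to 216, 1120 to 1560 and 19400 to 32700 CPM in those groups and all 7 called higher in AE than in ISC, and their part in it was not tested.

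Kcnu1, known from mouse sperm as a channel opened by alkaline pH, had 0.898, 0.711 and 0.587 CPM in E12.5, 0.224, 0.117 and 0.22 CPM in E14.5, 2.03, 1.14 and 1 CPM in ISC, and 4.31, 3.43 and 1.48 CPM in AE. E14.5 was lowest, and the adult groups overlapped. It rose 7.47-fold from E14.5 to ISC (log2 change 2.90, SE 0.49, adjusted p = 0.000127). The further rise to AE of 2.34-fold, with an adjusted p of 0.0121, was lost without AE replicate 1, at 0.0882.

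Kcnq1ot1, the non-coding member, silences neighbouring genes on the paternal chromosome. It had 919, 1470 and 1260 CPM in E12.5, 366, 396 and 338 CPM in E14.5, 1390, 1400 and 1180 CPM in ISC, and 55.8, 52 and 87.1 CPM in AE. E12.5 and ISC overlapped, E14.5 lay below them, and AE was lowest. The annotation gives it a single exon of 93.1 kilobases, and per kilobase it stood at 13, 3.94, 14.2 and 0.698 CPM in the 4 groups. It fell 3.31-fold from E12.5 to E14.5 (adjusted p = 6.61e-06), was 3.61-fold higher in ISC than in E14.5 (adjusted p = 1.45e-06) and was 20.4-fold lower in AE than in ISC (adjusted p = 1.13e-09). Within the sides of the read split, ISC and E12.5 differed by 1.09-fold with an adjusted p of 0.578, and AE was 5.67-fold below E14.5 (log2 change -2.50, SE 0.20, adjusted p = 4e-08). Reads outside annotated genes made up 46.2% to 58.1% of the E12.5 libraries, 39.3% to 40.5% of E14.5, 46% to 47.2% of ISC and 33.4% to 39% of AE, and their part in the level of this RNA was not tested. Where it overlaps Kcnq1, over 2.96% of the exon bases of Kcnq1, reads of the 2 genes cannot be told apart without a strand setting. That share covers exons of Kcnq1 only, and the part of reads from Kcnq1 introns in the level of Kcnq1ot1 was not tested. Both genes were high in ISC, while E12.5 held high Kcnq1ot1 and almost no Kcnq1.

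**Figure D5:**
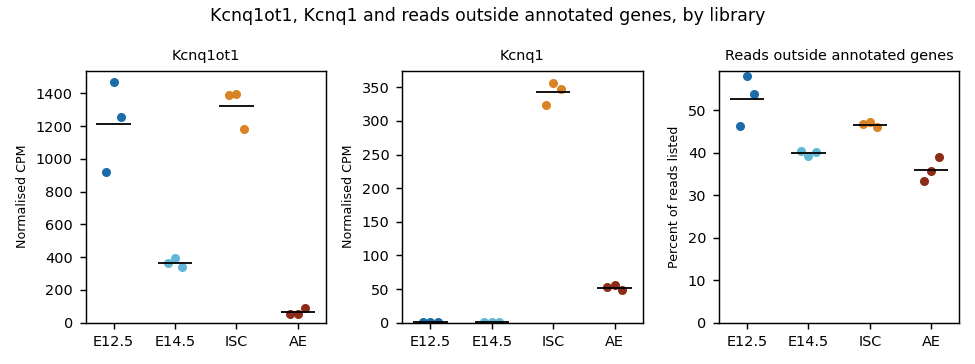
Normalised CPM of Kcnq1ot1 and of Kcnq1, and the percent of reads outside annotated genes, in each library, with a line for the mean of 3 libraries. Kcnq1ot1 is high in E12.5 at 1210 CPM and in ISC at 1320 CPM, Kcnq1 in ISC alone at 343 CPM, and reads outside genes are highest in E12.5 at up to 58.1%.

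Genes that work with the channels were followed in 3 lists. Of the 13 channel partners 10 were tested, and from E14.5 to ISC 2 rose and 7 fell, while from ISC to AE 5 rose and 2 fell. Of all genes tested 30.2% rose and 30.6% fell in the former step, and 32.6% rose and 35.1% fell in the latter. The median log2 changes were -1.36 and 1.37, beside -0.00482 and -0.0534 for all genes. Dpp6, whose product binds the channels of the Kcnd3 kind, fell from 10.3 ± 0.965 CPM in E12.5 to 0.908 ± 0.229 CPM in E14.5 and had no read in ISC. Amigo1, which encodes a channel auxiliary subunit, was highest in ISC at 25 ± 1.55 CPM.

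Of 25 potassium pump and cotransporter genes 15 were tested, of which 5 rose and 4 fell from E14.5 to ISC and 6 rose and 5 fell from ISC to AE, with median log2 changes of -0.109 and -0.367. With 60.8% and 67.8% of all genes called in these steps, the counts were near the share for all genes. Atp1b1, a subunit gene of the Na,K-ATPase, rose at every step, at 188 ± 23.4 CPM at E12.5, 657 ± 14.9 CPM at E14.5, 1220 ± 141 CPM in ISC and 3970 ± 959 CPM in AE. Slc12a2, the basolateral cotransporter that loads chloride for secretion, peaked in ISC instead, at 3690 ± 281 CPM against 388 ± 10.7 in E14.5 and 493 ± 107 in AE, as Kcnq1, Kcne3 and Kcnn4 did. The cotransporter genes Slc12a4 and Slc12a5 were embryonic, at 7.39 ± 0.378 and 12.4 ± 1.47 CPM in E12.5 and 0.104 ± 0.0647 and 1.59 ± 0.586 CPM in AE. Fxyd6, a pump regulator, fell from 5.59 ± 0.581 to 1.01 ± 0.234 CPM between the embryonic stages.

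Of 16 genes of anion secretion and sodium uptake 14 were tested, of which 11 rose and 2 fell from E14.5 to ISC and 12 rose and 1 fell from ISC to AE. Of all genes 30.2% and 32.6% rose in these steps. The median log2 changes were 1.49 and 3.05, beside -0.00482 and -0.0534 for all genes. The gene that fell from ISC to AE was Cftr, the apical chloride channel, at 857 ± 93.7 CPM in ISC and 415 ± 54.3 in AE. The sodium-glucose cotransporter gene Slc5a1 rose from 253 ± 43.3 to 4290 ± 1900 CPM, the amino acid transporter gene Slc6a19 from 5.11 ± 3.28 to 503 ± 236, the chloride exchanger gene Slc26a3 from 34 ± 5.92 to 310 ± 10.6, and the sodium exchanger gene Slc9a2 from 32.9 ± 2.51 to 247 ± 70.3. The scaffold gene Slc9a3r1 rose from 66.5 ± 11.9 to 973 ± 336 CPM.

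The 34 members that were not tested had between 0 and 78 counts over the 12 libraries, and none passed 1.94 CPM in any library, while the tested members had 52 to 216358 counts. Kcna10 and Kcnj1 had no read at all. By class they were 13 voltage-gated pore subunits, 7 of the 2-pore-domain kind, 5 inward rectifiers, 5 silent subunits and 4 auxiliary subunits. The calcium- and sodium-activated class had none. Their absence was not shown at this depth, since a count of 0 over a group allows up to 0.0371 CPM for E12.5, 0.0263 for E14.5, 0.0525 for ISC and 0.0606 for AE.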

How the data were processed

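The deposited values were raw read counts per gene symbol, 1 file per library, which the authors had not normalised. STAR 2.3.1z13, HTSeq 0.6.1p1, DESeq2 1.6.3 and build mm9 are named in the submitters' processing notes, with no role stated. Neither the gene annotation nor the strand setting is given in the sources used here. An input of 50 ng of RNA from sorted cells was amplified, per the labels' protocols, with an Ovation kit before library preparation. Each file held 23366 genes and 5 closing entries that name no gene (reads outside genes made up 33.4% to 58.1% of the reads listed), and the latter were left out of all totals and fits.

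Counts were tested with edgeR 4.0.16 in R 4.3.3, in 1 quasi-likelihood model of all 12 libraries with a coefficient for each group, after TMM scaling (factors 0.696 to 1.16) and the edgeR expression filter, which kept 15342 genes. P-values were adjusted by Benjamini-Hochberg over all of these and called under 0.05. Levels are CPM after TMM scaling, as mean ± SD of 3 libraries, and fitted folds used a prior count of 0.125. Against a group with no count a fold is a bound set by 3 counts over the group. With 1 to 3 counts it is the ratio with an exact 95% counting interval. Such intervals and bounds reflect read counting alone, because reads from amplified cDNA do not stand for separate molecules. A p-value sets a difference against a spread between libraries that was estimated for each gene over all 4 groups together. The AE libraries differed more from each other than the E14.5 libraries did. Levels per kilobase used exon unions of GENCODE M21 matched by symbol, since the annotation used in counting was not at hand. Promoter sequences are from RefSeq on GRCm38.p6, and no coordinates were converted from mm9.

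The genes named with every library were members of at least 10 CPM in their highest group and, in each comparison and direction, the 4 called members with the largest change, reaching 2 CPM in 1 group and without overlap. Other members are named with group means, and list genes by level or change. A few members and list genes are left out of this account. Members and lists were chosen with earlier results of these data known. Replicate numbers did not pair the libraries. Alternatives were other scalings, filters and tests (DESeq2 1.42.0, limma 3.58.1 with voom), a replicate block, only the 6 libraries compared and leaving out each library. The tests were also run on simulated counts in which 200 genes changed, in E14.5 only. Far more genes were called in these data, so that run does not check the tests under such conditions.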

Additional observations from a re-analysis of the deposited data

How the results depend on the processing

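Across the alternatives listed, the counts of members called in each comparison and of embryo-high and adult-high members stayed within 1.5 times the reported counts except in 1 case: fitting the 6 libraries alone gave 12 members higher in AE than in ISC, not 19, where 31 members passed the filter and the cause was not tested. Leaving out each library gave 27 to 34 embryo-high and 18 to 20 adult-high members, and higher and lower counts of 10 to 14 and 20 to 27 for E14.5 against E12.5, 14 to 17 and 30 to 32 for ISC against E14.5, 17 to 20 and 11 to 13 for AE against ISC, 15 to 16 and 37 to 39 for ISC against E12.5, 18 to 21 and 27 to 31 for AE against E14.5, and 18 to 20 and 28 to 34 for AE against E12.5. The replicate numbers showed no pairing, with correlations of same-numbered libraries between -0.081 and 0.080, and a replicate block gave 31 embryo-high and 17 adult-high members and higher and lower counts of 12 and 23, 15 and 32, 18 and 11, 15 and 37, 18 and 30, and 18 and 33 in the same order. Over all 266 calls on 61 members, 127 of 5501 recomputed values were no longer called and none changed sign. The cause of each loss was not tested. Each call was recomputed many times, also without libraries of groups not compared, so 127 of 5501 is not a share of calls. For E14.5 against E12.5, calls lost in any setting were those of Kcnb2, Kcng1, Kcnh6, Kcnip2, Kcnip4, Kcnj13, Kcnk1, Kcnk16, Kcnn2 and Kcnrg. Calls of the other comparisons were lost too. Values were left out of the 5501 where the member failed an alternative's filter or had no adjusted p. In each fit without a library the filter was applied anew, so the members tested could differ from the 61. The reported 17 adult-high members and 14 members higher in ISC than in E12.5 lie below the ranges from leaving out a library. In the settings other than leaving out a library, embryo-high members numbered 22 to 34 and adult-high members 15 to 20. The lowest counts of lower members there were 28 for ISC against E12.5 and 21 for AE against E14.5. The median log2 change of all genes was -0.154 for AE against E12.5 and -0.121 for AE against E14.5, and upper-quartile scaling moved it to -0.416 and -0.365, and to -0.251 for AE against ISC, so changes in AE are relative to these shifts. Depth limits members under about 1 CPM most, where 1 library often decides the fold.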
